A study of Homo sapiens with 2 samples.

Results

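The genes described here build and police the attachment of chromosomes to the mitotic spindle. They comprise the centromeric histone and CENP proteins, the outer kinetochore, the spindle assembly checkpoint, the chromosomal passenger complex with the shugoshins, and a few spindle kinases and assembly factors. The list names 43 genes, and a gene was taken where the platform annotation gave its symbol alone for a probe set. This held for 41 genes with 82 probe sets, out of 19775 genes measured, and CENPP and CENPJ were not analysed here. Where a gene had several probe sets, the one brightest on average stood for it, so the difference itself had no part in the choice.

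RNA came from QGP1, an established human cell line of a pancreatic neuroendocrine tumour (pNET). One array carried RNA of QGP1 cells sorted by flow cytometry for high activity of aldehyde dehydrogenase (ALDH), a property used to enrich stem-like tumour cells, and the other carried RNA of control QGP1 cells. No agent other than the sort is named, both groups are the same line, and it is not stated in the sources used here whether the controls were sorted too. Each group had 1 Affymetrix array, so no difference below has a replicate check, a p-value or an SD between cultures. Values are log2 levels made by RMA (background correction, quantile normalisation and median-polish summary of probes), and a difference is ALDH high minus control.

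The kinetochore is the protein layer that links centromeric chromatin to microtubules. A constitutive inner layer sits on nucleosomes holding the histone variant CENP-A, an outer layer binds microtubules, and unattached kinetochores recruit checkpoint proteins that delay anaphase. Many of these genes are transcribed mainly in G2 and M phase, through promoters in which CCAAT boxes and the cell cycle element called CHR are recurrent. In RNA from a whole sample, more cells in these phases and more RNA per cell cannot be told apart.

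Nearly the whole set stood higher in ALDH-high cells, mostly by less than 2-fold. Of the 41 genes, 40 lay above 0, where 45.6% of all genes did, and ZW10 alone lay marginally below it. The median difference was 0.58 on the log2 scale, against -0.01 over all genes. Over 1.5-fold higher were 19 genes, where 2.61% of all genes were (3.6% of genes whose higher level reached the median of all probe sets). Over 2-fold higher were 4 genes, namely AURKA, SGO2, CENPI and BUB1, where 0.465% of all genes were. None was over 2-fold lower, where 1.23% of all genes were, or over 1.5-fold lower, where 4.21% were. Many of these genes are known to be co-regulated through the cell cycle, so 41 genes are not 41 independent observations of the cells.

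**Figure D1:**
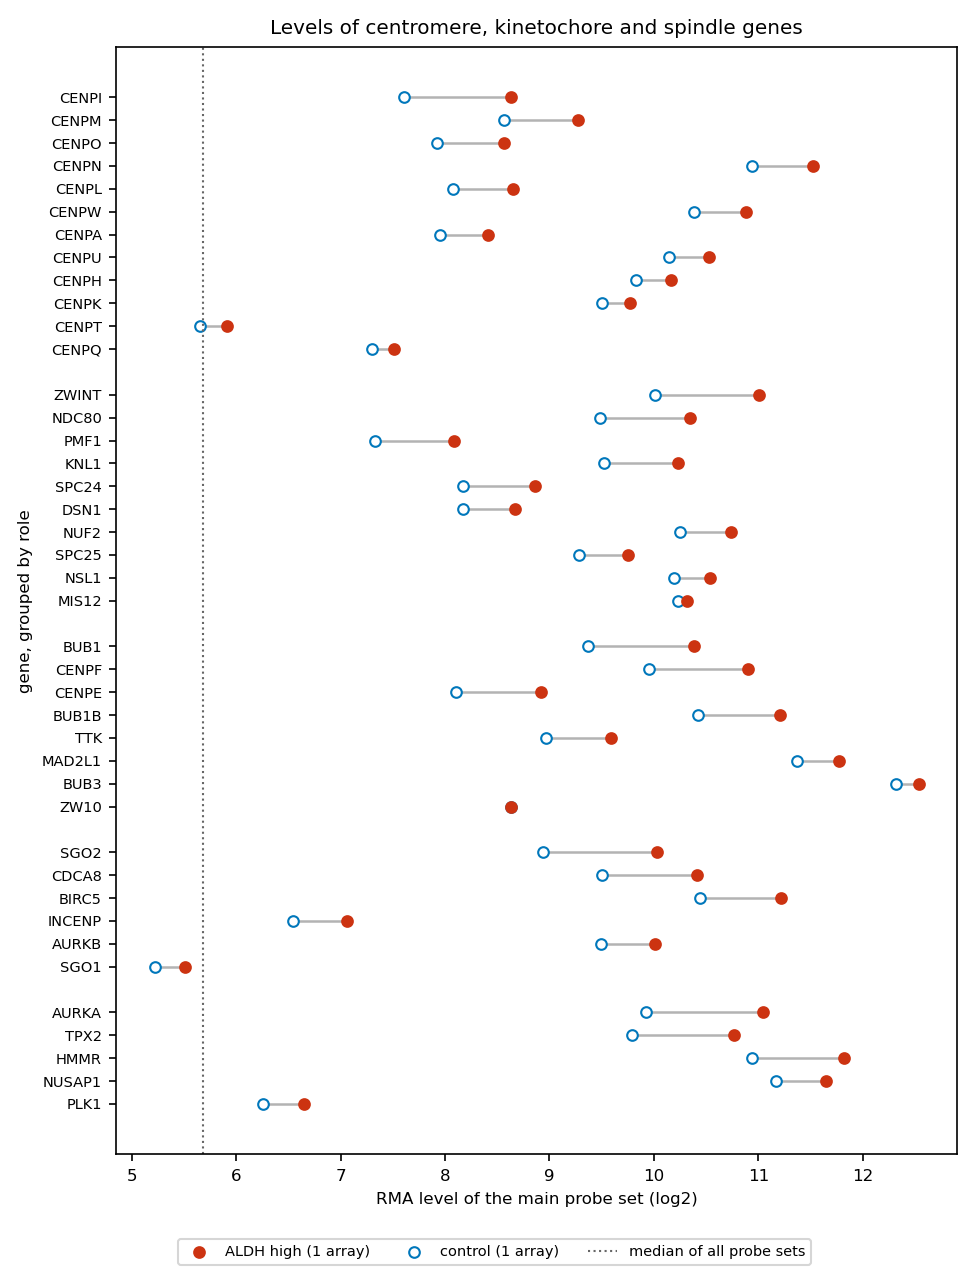
RMA level (log2, x axis) of each gene's main probe set in ALDH-high cells (filled red) and control cells (open blue), 1 array each, with genes grouped by role and ordered by difference. The red point lies to the right of the blue one for 40 of 41 genes, and the pair coincides for ZW10; the dotted line is the median of all probe sets, 5.68.

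The yardstick for these differences is the disagreement between probe sets of 1 gene, whose pooled SD was 0.23 over all genes. It leaves out the spread between cultures, sorts and labellings. By this measure 37 of 41 genes lay above it. CENPT, the last of these, was exceeded by 14.3% of all genes, and BUB3, the next, by 17.1%. The 8 largest differences, of AURKA through CDCA8, spanned 0.20 in all, less than this SD, so their order carries no weight. The 2-fold line runs through this cluster: BUB1 stood at 2.02-fold and CENPI at 2.03-fold, while ZWINT, with a difference of 0.999, and TPX2, at 1.97-fold, lay just short of it. With a pseudocount of 32, or with the median of a gene's probe sets, AURKA and SGO2 were the 2 genes over 2-fold, and with the mean of the probe sets CENPF and SGO2 were. The main probe set was open to shared targets for 15 of 41 genes. They are CENPA, CENPF, CENPH, CENPL, CENPN, CENPU, BUB3, MAD2L1, MIS12, NSL1, ZWINT, AURKA, BIRC5, CDCA8 and TPX2. Without such probe sets, 35 genes were left, ZWINT and TPX2 not among them. Of these 35, 5 were over 2-fold higher (CENPF, CENPI, BUB1, SGO2 and BIRC5). AURKA, left with a dim probe set, was not.

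Controls on the arrays moved in the same direction by less. The poly-A controls, bacterial transcripts added before labelling, had a mean difference of 0.32 (24 probe sets, SD 0.07), and the hybridisation controls one of 0.05 (18 probe sets, SD 0.04). Setting the scale by the poly-A controls, an alternative chosen after seeing the data, lowers every gene by 0.32. It left 34 of 41 genes above 0, a median of 0.26, 8 genes over 1.5-fold and 0 over 2-fold. The shares of all genes given above belong to the deposited scale. On it, the shift of 0.32 falls between NSL1 (0.34) and SGO1 (0.29), which 8.94% and 11.9% of all genes exceeded. CDCA8 (0.91), the last of those 8, was exceeded by 0.652% of all genes, and HMMR (0.88), the next, by 0.723%. The distance of the set's median from that of all genes, 0.59, does not depend on such a shift. The ratio of the 3' to the 5' probe set was 1.83 in ALDH high and 1.67 in control for ACTB, and 1.14 in ALDH high and 1.15 in control for GAPDH; its part in the result was not tested. The labelled cell type was checked on its markers. For all 9 measured neuroendocrine markers, of 10 listed, the higher level reached the median of all probe sets, as it did for 12828 of 19775 genes. NKX2-2 (5.69 in ALDH high, 5.90 in control) lay close to that median. The mean level of the 9 was 10.39 in ALDH high and 10.30 in control. Of other cell types, 3 of 11 fibroblast, 2 of 10 endothelial and 2 of 7 measured leukocyte markers (10 listed) reached the median level. Their mean levels were 4.59, 4.77 and 4.73 in ALDH high and 4.72, 4.71 and 5.10 in control. The median differences of these 4 marker lists were -0.08 (neuroendocrine), -0.11 (fibroblast), -0.01 (endothelial) and -0.18 (leukocyte). Over 2-fold different among them were the islet factor ISL1 (10.29 in ALDH high, 9.05 in control) and the leukocyte genes LYZ (4.34 in ALDH high, 5.67 in control) and CD14 (4.30 in ALDH high, 5.32 in control); their part in the result was not tested.

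Promoters are shown for the gene with the largest difference of each role group, for ZW10 as the gene with the smallest, and for HMMR, added after the matches were seen because it had the most CCAAT matches. They come from RefSeq's GRCh38.p14 and give the 250 bases before the start listed in the reference used, 5' to 3' on the gene's strand. Whether that start is the one used in QGP1 cells was not tested for any gene. The AURKA promoter is not shown. Capitals mark CCAAT, the CHR letters TTTGAA, and E2F-like letters, each on either strand. The E2F-like letters are TTCCCGC and, differing in the middle, TTCGCGC; further, TTGCCGC was searched, and finally TTGGCGC, which can overlap the reverse complement of CCAAT. The stretches lie at chrX:101100808-101101057 (CENPI, plus strand), chr10:56361274-56361523 (ZWINT, minus), chr2:110678064-110678313 (BUB1, minus), chr2:200525892-200526141 (SGO2, plus), chr5:163460382-163460631 (HMMR, plus) and chr11:113773693-113773942 (ZW10, minus).
CENPI: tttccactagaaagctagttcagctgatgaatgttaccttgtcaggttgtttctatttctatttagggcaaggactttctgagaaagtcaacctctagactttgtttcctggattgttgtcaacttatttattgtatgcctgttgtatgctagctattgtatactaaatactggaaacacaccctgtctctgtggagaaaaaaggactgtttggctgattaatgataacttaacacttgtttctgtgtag
ZWINT: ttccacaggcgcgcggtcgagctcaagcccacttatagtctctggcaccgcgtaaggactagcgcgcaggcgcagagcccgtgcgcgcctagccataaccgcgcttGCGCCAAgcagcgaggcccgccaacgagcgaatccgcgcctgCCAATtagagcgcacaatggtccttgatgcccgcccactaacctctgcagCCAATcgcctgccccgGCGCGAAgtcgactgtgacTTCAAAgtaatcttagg
BUB1: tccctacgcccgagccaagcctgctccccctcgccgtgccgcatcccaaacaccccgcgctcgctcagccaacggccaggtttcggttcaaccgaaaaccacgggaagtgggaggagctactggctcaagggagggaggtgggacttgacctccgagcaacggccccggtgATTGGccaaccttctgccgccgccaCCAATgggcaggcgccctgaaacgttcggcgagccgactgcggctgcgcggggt
SGO2: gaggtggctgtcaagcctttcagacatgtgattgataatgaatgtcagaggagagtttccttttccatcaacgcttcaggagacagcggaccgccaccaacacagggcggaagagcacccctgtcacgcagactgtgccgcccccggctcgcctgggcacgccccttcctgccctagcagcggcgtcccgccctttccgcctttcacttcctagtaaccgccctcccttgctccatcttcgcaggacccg
HMMR: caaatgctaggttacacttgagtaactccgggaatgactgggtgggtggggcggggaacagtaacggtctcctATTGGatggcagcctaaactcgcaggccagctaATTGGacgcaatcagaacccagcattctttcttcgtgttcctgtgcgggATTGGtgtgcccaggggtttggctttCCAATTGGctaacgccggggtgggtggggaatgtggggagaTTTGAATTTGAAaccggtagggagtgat
ZW10: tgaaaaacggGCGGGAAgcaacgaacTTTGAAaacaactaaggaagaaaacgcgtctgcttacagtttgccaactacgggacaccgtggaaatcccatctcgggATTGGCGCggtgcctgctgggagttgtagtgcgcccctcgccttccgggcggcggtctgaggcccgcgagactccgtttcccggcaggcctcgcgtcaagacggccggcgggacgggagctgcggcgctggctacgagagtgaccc

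In the HMMR stretch 5 CCAAT matches, of which the pair starting 69 and 66 bases before the start overlaps, precede 2 abutting CHR matches that begin 28 and 22 bases before it. ZWINT has CCAAT matches at 102 and 52 bases and a CHR match at 17 bases before the start, with E2F-like matches at 144 and 36. BUB1 has a pair of CCAAT matches at 79 and 54 bases and no CHR match. CENPI and SGO2, with differences as large, show none of the letters in these stretches. Whether the CENPI stretch, or any other, is the promoter in use was not tested. ZW10, with no difference, holds all 3 kinds, its CHR match lying 224 bases before the start.

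Over the 32 of 41 genes with a promoter in the table, 16 (50%) held the CHR letters in the window of 250 bases before and 50 after the start, where 15.5% of 27305 promoters did. CCAAT was found in 23 (71.9%), where 35.7% of all promoters held it, and at least 2 matches in 14 (43.8%), where 11.3% did. E2F-like letters were found in 12 (37.5%), where 13% of all promoters held them. All promoters include those of genes without a probe set. Among the 15384 promoters of genes with a probe set, the shares were 12% (CHR), 36.1% (CCAAT), 12.2% (at least 2 CCAAT matches) and 17% (E2F-like). Of the 19 genes over 1.5-fold higher 13 had a promoter to search, and of the 22 others 19 did, so the higher genes are less fully covered. Within the set, CHR letters were found in 7 of the 13 promoters of genes over 1.5-fold higher, and in 9 of 19 of the remainder. CCAAT was found in 8 of those 13, and in 15 of those 19. E2F-like letters were found in 2 of those 13, and in 10 of those 19. These are counts of letters with no test, and a match is not a bound site.

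Inner kinetochore genes stood higher in ALDH-high cells. All 12 measured genes lay above 0, with a median of 0.48, and 3 were over 1.5-fold higher. CENPI was highest in difference, at 8.63 in ALDH high against 7.61 in control (2.03-fold). Its further probe sets differed by 0.82, 0.74 and 0.16. That at 0.74 was dim (4.88 in ALDH high, 4.14 in control), as was that at 0.16 (2.93 in ALDH high, 2.77 in control). CENPM stood at 9.27 in ALDH high against 8.57 in control (1.63-fold), and CENPO at 8.56 in ALDH high against 7.92 in control (1.56-fold, with 0.28 on its second probe set). The smallest differences were those of CENPQ, at 7.51 in ALDH high against 7.30 in control (1.16-fold), and CENPT, which binds DNA and recruits the outer Ndc80 complex, at 5.91 in ALDH high against 5.66 in control (1.19-fold). The second CENPT probe set differed by 0.26.

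CENPA, the histone H3 variant that marks the centromere, stood at 8.41 in ALDH high against 7.96 in control, a 1.37-fold higher level on a single probe set open to cross-hybridisation. CENPL and CENPN, which form a pair that contacts the CENP-A nucleosome, both differed by 0.58 on main probe sets open to cross-hybridisation. The other CENPL probe set differed by 0.80. Those of CENPN differed by 0.77, 0.85 and 0.08, the last dim (5.14 in ALDH high, 5.06 in control). CENPH, CENPI, CENPK and CENPM, which form another complex, ranged from 0.27 (CENPK) through 0.34 (CENPH) and 0.70 (CENPM) to 1.02 (CENPI). The 4 probe sets of CENPI alone spanned as much, from 0.16 to 1.02. In the CENP-O group CENPO stood at 0.64, CENPU at 0.38 with its 3 probe sets within 0.36 to 0.42, and CENPQ at 0.21. CENPW, the histone-fold partner of CENPT, was 1.41-fold higher (10.88 in ALDH high, 10.39 in control).

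In the outer kinetochore all 10 genes lay above 0, with a median of 0.59 and 5 over 1.5-fold higher. ZWINT, which binds KNL1 and helps to hold checkpoint proteins, stood at 11.01 in ALDH high against 10.01 in control (a difference of 0.999), on 1 probe set open to cross-hybridisation. NDC80, the microtubule-binding subunit of the complex of that name, stood at 10.34 in ALDH high against 9.49 in control (1.81-fold). PMF1, a Mis12 complex subunit, stood at 8.08 in ALDH high against 7.33 in control (1.68-fold). KNL1, the scaffold for BUB1 and BUB3, was 1.64-fold higher, and its 4 probe sets spanned 0.07 to 0.89, the smallest at a dim 2.82 in ALDH high against 2.75 in control.

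The Ndc80 complex held NDC80 at 0.86, SPC24 at 0.69, NUF2 at 0.49 and SPC25 at 0.46. SPC24 differed by 0.15 on its second probe set, which was dim (5.19 in ALDH high, 5.04 in control). In the Mis12 complex PMF1 stood at 0.75 and DSN1 at 0.49, whereas NSL1 stood at 0.34 (10.54 in ALDH high, 10.20 in control) and MIS12 at 0.08 (10.32 in ALDH high, 10.23 in control). MIS12 was bright on both arrays, on 1 probe set open to cross-hybridisation. The other NSL1 probe sets lay between 0 and 0.13.

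The spindle checkpoint and corona genes ranged from level to over 2-fold higher. Of 8 genes 5 were over 1.5-fold higher, and the median was 0.70. BUB1, the kinase that marks centromeric histone H2A and recruits shugoshin, stood at 10.38 in ALDH high against 9.37 in control (2.02-fold). A second BUB1 probe set differed by 1.24 (8.31 in ALDH high, 7.07 in control), and those at -0.02 and -0.06 were dim (5.10 in ALDH high, 5.12 in control, and 3.32 in ALDH high, 3.39 in control). CENPF, a large corona protein, stood at 10.90 in ALDH high against 9.95 in control (1.93-fold), with 0.92 on a bright further probe set and 1.35 on a dim one (5.16 in ALDH high, 3.81 in control). CENPE, the kinetochore kinesin that carries chromosomes to the equator, stood at 8.92 in ALDH high against 8.11 in control (1.75-fold).

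BUB1B, which encodes the checkpoint inhibitor BUBR1, was 1.72-fold higher (11.21 in ALDH high, 10.43 in control), and TTK, the kinase MPS1 that starts checkpoint signalling, 1.54-fold higher (9.59 in ALDH high, 8.96 in control). MAD2L1, the MAD2 protein that captures CDC20, was 1.33-fold higher, with its 3 probe sets between 0.28 and 0.49. Least different were BUB3, the WD40 partner of BUB1 and BUBR1, and ZW10, a corona subunit that recruits dynein. BUB3 stood at 12.54 in ALDH high against 12.32 in control (1.16-fold), and its other 5 probe sets lay between 0.02 and 0.32. ZW10 stood at 8.64 on both arrays, on 1 probe set.

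**Figure D2:**
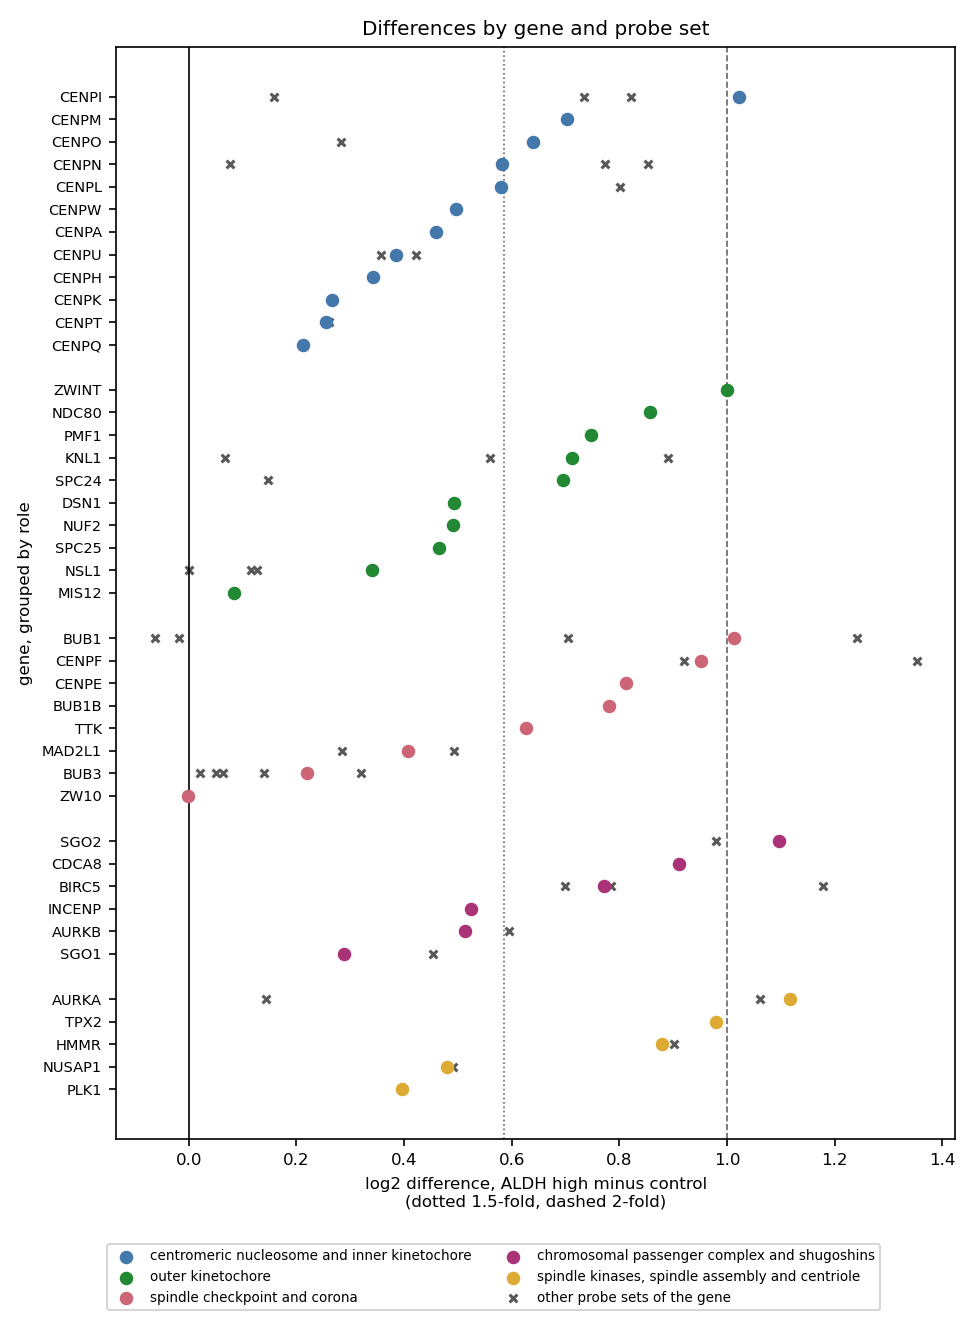
Log2 difference, ALDH high minus control (x axis), for each gene's main probe set (coloured by role) and its other probe sets (crosses); lines mark 0, 1.5-fold (dotted) and 2-fold (dashed). The main points of every role group spread widely, ZW10 and MIS12 lie nearest 0, and AURKA, SGO2, CENPI and BUB1 lie past the dashed line.

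All 4 chromosomal passenger genes were higher. This complex places the kinase Aurora B at centromeres to correct faulty attachments. CDCA8, encoding the borealin subunit, stood at 10.42 in ALDH high against 9.51 in control (1.88-fold), on 1 probe set open to cross-hybridisation. BIRC5, encoding survivin, stood at 11.22 in ALDH high against 10.44 in control (1.71-fold), and its other probe sets differed by 1.18, 0.78 and 0.70. INCENP, the scaffold, was 1.44-fold higher (7.07 in ALDH high, 6.54 in control). AURKB itself stood at 10.01 in ALDH high against 9.50 in control (1.43-fold), with 0.59 on its second probe set.

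The shugoshins, which protect centromeric cohesin, differed from each other. SGO2 stood at 10.03 in ALDH high against 8.93 in control (2.14-fold), and its second probe set agreed at 0.98 (9.88 in ALDH high, 8.90 in control). SGO1 stood at 5.51 in ALDH high against 5.22 in control (1.22-fold). Its second probe set, also dim, differed by 0.45 (5.38 in ALDH high, 4.92 in control). SGO1 was the 1 gene of 41 whose main probe set lay below the median level on both arrays.

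Spindle kinases and assembly factors had a median of 0.88, with 3 of 5 genes over 1.5-fold higher. AURKA, the centrosomal Aurora kinase, stood at 11.05 in ALDH high against 9.93 in control (2.17-fold). Its second bright probe set differed by 1.06, and the third, dim at 5.15 in ALDH high against 5.01 in control, by 0.14. TPX2, which activates Aurora A on the spindle, stood at 10.76 in ALDH high against 9.79 in control (1.97-fold), and HMMR, a hyaluronan receptor that also acts at spindle poles, at 11.82 in ALDH high against 10.94 in control (1.84-fold, with 0.90 on its second probe set). NUSAP1, a microtubule bundling protein, stood at 11.65 in ALDH high against 11.17 in control (1.39-fold, with 0.49 on its second probe set). PLK1, the polo kinase of mitotic entry and exit, stood at 6.65 in ALDH high against 6.26 in control (1.32-fold) on 1 probe set. Without probe sets open to cross-hybridisation, AURKA is left with its dim probe set, TPX2 has none, and the median of the remaining 4 genes was 0.44.

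Probe sets of 1 gene mostly pointed the same way, and dimmer ones had the smaller median. Of 20 genes with several probe sets, 18 had all of them above 0, the exceptions being BUB1 and NSL1. Among 67 probe sets at or above the median level 66 lay above 0, with a median of 0.58, whereas 12 of 15 dimmer ones did, with a median of 0.15. The pooled SD between probe sets of 1 gene was 0.31 in the kinetochore set against 0.23 over all genes, and over bright probe sets 0.13 (17 genes with several) against 0.18 over all genes. Differences that recur, to 6 decimals, in at least 20 probe sets made up 29.5% of the table, but 0 of the 41 main probe sets and 5 of the 82. Those 5 belong to SGO1 (0.45), CENPI (0.16), BUB3 (0.14), KNL1 (0.07) and NSL1 (0).

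Genes in a list used to score G2 and M phase had a larger median than those outside it. The list, by Tirosh and colleagues and in wide use for single cells, holds 14 of the 41 genes. It does not tell in which phase the other 27 peak. The 14 genes in the list had a median of 0.83, with 10 over 1.5-fold higher and the smallest at 0.46. The remaining 27 had a median of 0.49, with 9 over 1.5-fold higher. The groups overlapped widely, since SGO2 (1.10) and CENPI (1.02) lie outside the list and CENPA (0.46), NUSAP1 (0.48) and NUF2 (0.49) inside it, and no test of the difference was made.

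**Figure D3:**
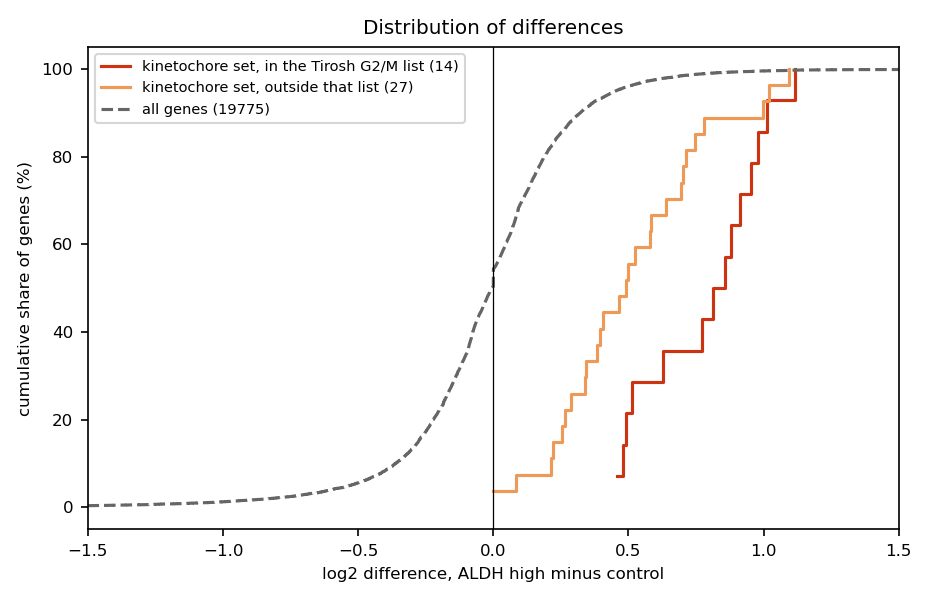
Cumulative share of genes (y axis, percent) by log2 difference, ALDH high minus control (x axis), for the 14 genes in the Tirosh G2/M list (red), the other 27 genes (orange) and all 19775 genes (dashed grey; the axis ends at a difference of 1.5 either side and leaves the extremes out). The red curve starts at 0.46, the orange one at 0, and the grey one crosses its midpoint at about 0.

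Other kinetochore genes were also mostly higher. Of 27 measured genes 24 lay above 0, 8 were over 1.5-fold higher and 0 over 2-fold, with a median of 0.48. HJURP, the chaperone that loads CENP-A, stood at 10.24 in ALDH high against 9.46 in control (1.72-fold), and SPDL1, the dynein adaptor spindly, at 9.76 in ALDH high against 8.98 in control (1.71-fold, with 0.52 on its other probe set). The partners that load CENP-A with HJURP stood at 0.73 (OIP5) and 0.70 (MIS18A). Below 0 on their main probe sets were CLIP1 (-0.46), NDEL1 (-0.27) and MAD2L2 (-0.19). The 6 probe sets of CLIP1 ranged from -0.46 to 0.40. MAD1L1, the partner of MAD2, stood at 0.09. These names and the loading partners were chosen after their values were seen.

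Downstream of the checkpoint, the activator CDC20 and the substrate CCNB1 of the anaphase-promoting complex were over 2-fold higher on their main probe sets. The 23 measured genes of the complex and of mitotic exit had a median of 0.23, with 17 above 0, and the median was -0.086 on the poly-A control scale. CDC20, the activator held by the checkpoint, stood at 11.41 in ALDH high against 10.07 in control (2.55-fold), on 1 probe set open to cross-hybridisation. CCNB1, the cyclin it helps to destroy, stood at 11.97 in ALDH high against 10.95 in control (2.03-fold). The main CCNB1 probe set is also open to cross-hybridisation, and the other differed by 0.89, less than 2-fold. The 13 core subunits, a subset formed after their values were seen, lay on both sides of 0, from -0.47 (ANAPC16) to 0.37 (ANAPC7), with a median of 0.02.

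Cohesin and condensin genes had a median of 0.43, with 19 of 21 above 0 and 6 over 1.5-fold higher. SMC2, a condensin ATPase, stood at 10.46 in ALDH high against 9.65 in control (1.75-fold), and STAG1, a cohesin subunit, at 8.76 in ALDH high against 8.01 in control (1.68-fold). The 8 condensin subunits, grouped after their values were seen, had a median of 0.65 and their smallest difference at 0.40. Of the cohesin core, named after the values were seen, SMC1A stood at 0.46, SMC3 at 0.15, RAD21 at 0.12 and STAG2 at 0.08. All 18 centrosome and spindle pole genes lay above 0, with a median of 0.57, led by SPAG5, the spindle protein astrin (10.50 in ALDH high, 9.32 in control, 2.27-fold), and ASPM, a spindle pole protein (11.77 in ALDH high, 10.81 in control, 1.94-fold).

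Compared with the parts of the cell cycle most like it, the kinetochore set lay between mitotic motors and replication genes. The 13 mitotic kinesins had a median of 0.77, with 10 over 1.5-fold higher, led by KIF20A (2.48-fold) and KIF23 (2.06-fold), and 3 of them (KIFC1, KIF2C and KIF2A) are also in lists above. The 26 replication genes had a median of 0.44, with 6 over 1.5-fold higher, led by TYMS (2.54-fold) and GINS2, whose main probe set gave a 1.76-fold higher level but which stood at 0.11 without probe sets open to cross-hybridisation. The medians of 0.77, 0.58 and 0.44 are less than 0.4 apart in all, and nothing was tested between the lists.

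**Figure D4:**
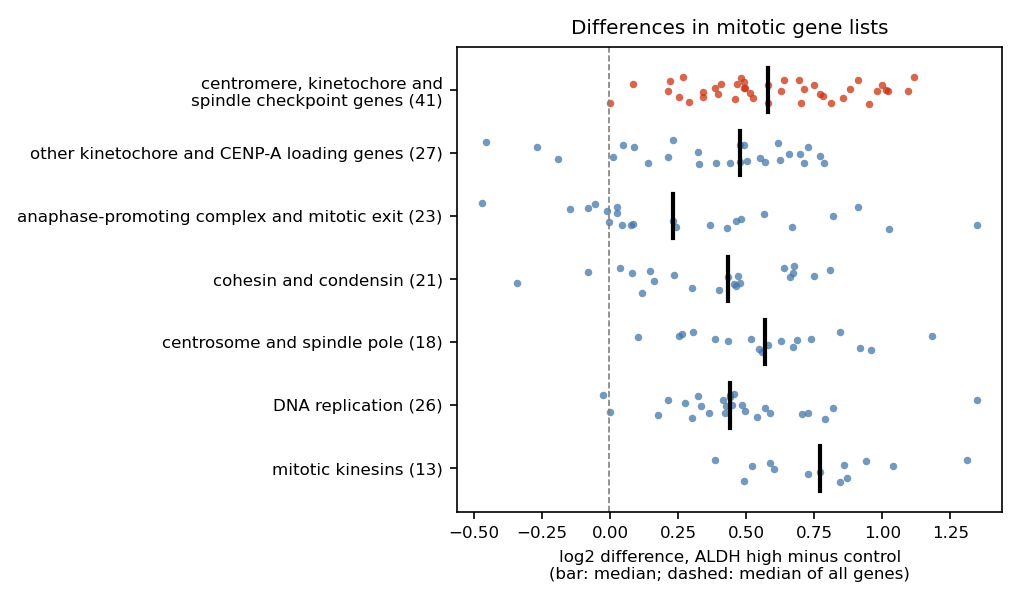
Log2 difference, ALDH high minus control (x axis), of every measured gene in the kinetochore set (red) and in 6 further lists (blue); black bars are medians, the dashed line is the median of all genes, and vertical scatter within a row has no meaning. On the scale as deposited every list's median lies right of the dashed line, from 0.23 for the anaphase-promoting complex to 0.77 for the mitotic kinesins.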

How the data were processed

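Gene expression was measured on 1 Affymetrix array for ALDH-high and 1 for control QGP1 cells, labelled from the poly-A tail per the labels' protocols. The authors deposited RMA values on a log2 scale, per the submitters' processing notes; version, genome build and detection calls are not stated in the sources used here. RMA forces the arrays to near-equal distributions (medians 5.68 and 5.68), so a difference is relative to the other genes. Of 54675 probe sets, 62 controls were set aside. Names came from GEO's platform annotation, updated through Entrez IDs to RefSeq symbols of GRCh38.p14, and probe sets with several symbols were left unnamed.

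Differences and counts were computed with pandas 2.3.3 in Python 3.11.15, and the steps were tested on simulated data. Thresholds were 2-fold, from the series description, and 1.5-fold. With 1 array per group there is no test. The members, lists and rules were chosen with earlier results of these data known. Named were genes over 2-fold, the 3 largest and 2 smallest differences of each role group, and in each further list those over 2-fold, up to 4 and at least 2. The number of arrays limits the precision.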

Additional observations from a re-analysis of the deposited data

How the results depend on the processing

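Group medians, the counts over the kinetochore set and the differences of named genes were recomputed with the median or the mean of a gene's probe sets, without probe sets open to shared targets, with a pseudocount of 32, with genes at or above the median level, and with centring. Centring changed nothing, because the median difference over all probe sets was 0, and the level filter removed 1 of 41 kinetochore genes. Subcomplexes, subsets formed later, marker lists and motif counts were not recomputed. A value counted as moved beyond 0.23, the probe set SD, and a count beyond 1.5 times. The count of kinetochore genes over 2-fold higher, 4, became 2 with the median of probe sets, 2 with their mean and 2 with the pseudocount. The median of the spindle kinases and assembly factors became 0.44 without shared-target probe sets. On the poly-A control scale, added after seeing the data and lower by 0.32 throughout, the set's median became 0.26, the count over 1.5-fold 8 and the count over 2-fold 0. On that scale the role group medians became 0.16 (inner kinetochore), 0.28 (outer kinetochore), 0.39 (checkpoint and corona), 0.33 (passenger complex and shugoshins) and 0.56 (spindle kinases and assembly), and those inside and outside the Tirosh list 0.52 and 0.18. The further lists came to 0.16 (other kinetochore genes), 0.12 (cohesin and condensin), 0.25 (centrosome), 0.12 (replication) and 0.45 (kinesins), and the anaphase-promoting complex list turned to -0.086. Under the other alternatives no sign turned for a group median or a gene over 2-fold. Of the 41 single genes, 4 moved with the mean of probe sets and 3 with their median. Without shared-target probe sets, 35 could be recomputed and 3 moved. These were AURKA (0.14) and CENPF (1.35), both then on dim probe sets, and BIRC5 (1.18). CENPA, CENPH, MIS12, ZWINT, CDCA8 and TPX2 had no probe set left. Of the named genes of the further lists, 1 moved with the mean of probe sets and 1 with their median, GINS2 in each case. Without shared-target probe sets 3 moved, namely SPDL1 (0.52), SMC2 (0.53) and GINS2 (0.11), and CDC20 could not be recomputed. The cause of these single-gene shifts was not tested. No paired analysis was possible because each group had 1 array, and no array could be left out.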
